A study of Homo sapiens with 35 samples.

Results

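All-trans retinoic acid (ATRA) and valproic acid (VPA) were set against each other at 24 h in BE(2)-C cells, a human neuroblastoma line that carries extra copies of MYCN. The comparison used the 3 arrays of cells given 5 uM ATRA alone and the 3 arrays of cells given 1 mM VPA alone, which are 6 of the 35 arrays of the study, and no vehicle array entered it. The arrays of both agents and of their combination at 6 h, 24 h and 72 h, 27 in all, shared the estimate of the spread. Both groups came from the same line, grown in DMEM with foetal bovine serum and antibiotics, and total RNA was amplified from an oligo-dT primer and hybridised as biotin-labelled cRNA to an early access Affymetrix human array. The labels do not say whether cells given VPA also received DMSO, the vehicle of the study. They mention triplicates without naming separate cultures, passages or days, so that the p-values measure only the spread between these samples. A single cell line at a single dose of each agent is described. The question the comparison answers is which genes separate cells under a retinoid from cells under a histone deacetylase inhibitor, whatever their distance from the vehicle.

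Retinoic acid is a ligand of the retinoic acid receptors, which sit with retinoid X receptors on paired half-sites in the DNA and recruit coactivators when the ligand binds. Its direct targets include the CYP26 enzymes that break retinoic acid down, its carrier CRABP2 and HOX genes, and retinoids are known to bring neuroblastoma cells out of the cell cycle and into neurite extension. VPA is a branched short-chain fatty acid used against epilepsy, and it inhibits class I histone deacetylases, which leaves histones more acetylated.

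At 24 h the 2 agents left the cells in clearly separate expression states, with nearly even counts of genes on the 2 sides as deposited values were scaled. Of 11940 genes, 3287 differed at an adjusted p of 0.05 (limma's moderated test, Benjamini-Hochberg over all genes), which is 27.5% of those tested. Of these, 1665 were higher with ATRA (13.9%) and 1622 were higher with VPA (13.6%). That balance moved with the scaling, to 1894 and 1474 with arrays centred on their median and 1590 and 1750 after a second quantile normalization. Differences are given throughout as log2(intensity + 1), ATRA minus VPA, so that a negative value means higher with VPA, and the errors beside them are standard errors of the fit with 3 arrays per group. Most differences were small, with a median of 1.40-fold among the genes higher with ATRA and 1.41-fold among those higher with VPA. At least 2-fold differences were called for 330 genes (2.76%), 167 higher with ATRA (1.4%) and 163 higher with VPA (1.37%). The far end leaned to ATRA, since 18 genes were called at 4-fold or more higher with ATRA and 9 higher with VPA, and the counts at 8-fold or more were 7 and 0. The intensities of the 3 ATRA arrays and the 3 VPA arrays did not overlap for 4590 genes (38.4%), and 3115 of the called genes were among them. The median log2 difference over all genes was -0.02. A call was more often reached for bright genes, with 42.6% called among genes with a mean of at least 100 in either group and 11.2% among the 5743 genes under that level in both.

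**Figure D1:**
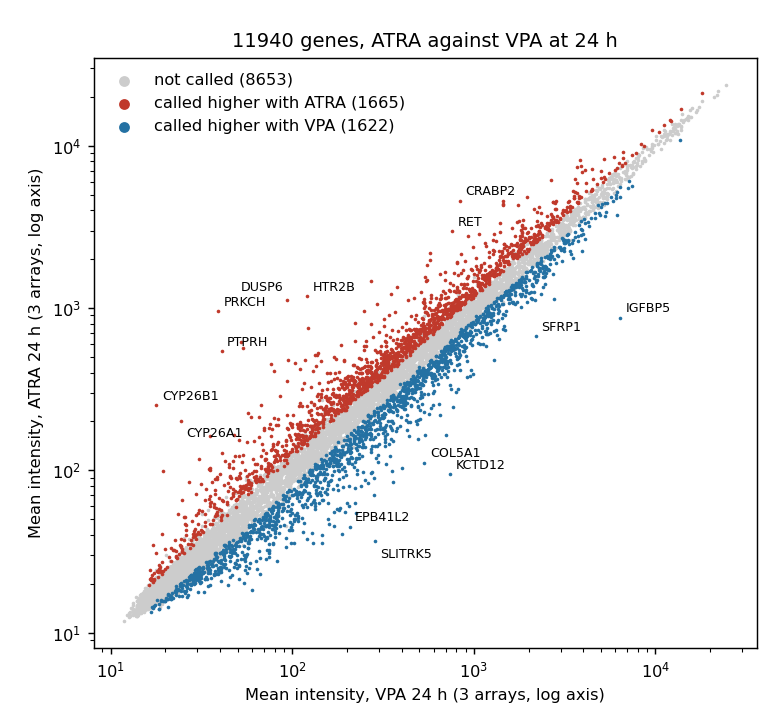
Mean intensity of each of 11940 genes over the 3 VPA arrays (horizontal, log axis) and the 3 ATRA arrays (vertical, log axis) at 24 h; red points were called higher with ATRA (1665) and blue points higher with VPA (1622). The points that lie farthest from the diagonal are on the ATRA side, among them PRKCH and CYP26B1, and the farthest on the VPA side are KCTD12, SLITRK5 and IGFBP5.

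The 6 arrays were alike in scale, with a median intensity between 53.9 and 55.03 and a mean correlation with the other arrays of their own group between 0.9952 and 0.9968 across genes. They differed in the 3'/5' ratio, here the mean over control probe sets of GAPDH and ACTB, a measure of how complete the RNA or cDNA was. Its log2 value was 0.62, 1.30 and 0.74 in the ATRA arrays and 1.25, 2.33 and 1.22 in the VPA arrays, highest in VPA replicate 2. The group means, 0.89 ± 0.36 and 1.60 ± 0.63 (SD, n = 3), differed by -0.71, which did not pass a two-sided exact permutation test (p = 0.3, where 0.1 is the smallest that 3 against 3 arrays allow). With this ratio as a covariate, 2331 genes were called, 1292 higher with ATRA and 1039 higher with VPA. Only 2076 of the 3287 calls made without it (63.2%) were kept, and 0 of these shared calls had turned direction. Counts under that covariate and without VPA replicate 2 are therefore given beside the gene groups where they differ. Of the vehicle arrays, which are used below for levels alone, DMSO 24 h replicate 1 stood apart with a median intensity of 43.63 and 218 genes that fell short of the rest of its group by 1 log2 unit or more. Markers matched the labelled cell type: all 9 measured sympathetic neuroblast markers were at an intensity above 25 in both groups, and their summed intensity was 17617 to 18433 with ATRA and 16543 to 18235 with VPA. The lower quartile of an array lay near 21 to 22, so that values under about 25 are not shown to be above background. Of 10 haematopoietic markers, PTPRC, CD3E, SPI1, HBB and others, 8 were under 25 with ATRA and 7 with VPA, and 0 were called. Of 9 Schwann and glial markers, 6 were under 25 in either group and 0 were called. Because RNA was taken from whole cultures, fewer cells of a type and less RNA per cell cannot be told apart.

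Genes that clear and carry retinoic acid held some of the largest differences. CYP26A1 and CYP26B1 encode the cytochromes P450 that hydroxylate and clear retinoic acid. CYP26B1 read 206, 258 and 292 in the ATRA arrays and 18.4, 18.6 and 16.6 in the VPA arrays (log2 3.73 ± 0.14, adjusted p = 7.33e-16). CYP26A1 read 166, 230.0 and 208 with ATRA and 22.3, 28.1 and 22.4 with VPA (log2 2.99 ± 0.17, adjusted p = 2.43e-12). For both genes the VPA arrays lay at or near the level where signal is not shown to be above background, as did the DMSO arrays at 17.3, 17.8 and 17.7 for CYP26B1 and 25.4, 25.4 and 18.1 for CYP26A1, and every ATRA array lay far above them. Their log2 differences are therefore read against a level not shown to be above background, and do not fix the size of the difference. In the combination arrays CYP26A1 read 363, 402 and 332, above all ATRA arrays, whereas CYP26B1 read 144, 119.9 and 167, below all of them. CRABP2, which carries retinoic acid into the nucleus, was at 5083, 4249 and 4426 with ATRA and 957, 759 and 792 with VPA (log2 2.46 ± 0.10, adjusted p = 1.13e-15). The VPA arrays of CRABP2 also stood above the DMSO arrays, which read 161, 337 and 361. DHRS3, a reductase that turns retinal back to retinol, was higher with ATRA by 0.93 ± 0.19 log2 units (adjusted p = 0.000459), at 76.4, 68.4 and 50.6 against 29.8, 35.2 and 34.6. Of the 21 measured genes for retinoid binding, synthesis and breakdown, 6 were higher with ATRA and 0 with VPA. The share called, 28.6%, was near the 27.5% over all genes. The other 2 called were STRA6 and RDH11 at log2 0.34 and 0.24. The 15 others were not called, and 8 of the 21 were under 25 in both groups, ALDH1A1 and LRAT among them.

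The receptors themselves were divided. Of 19 measured receptors and coregulators, 6 were higher with ATRA and 6 with VPA (63.2% called, against 27.5% over all genes). The counts were 4 and 4 with the 3'/5' covariate. RARA, the alpha receptor, read 331, 354 and 391 with ATRA and 189, 199.7 and 164 with VPA (log2 0.96 ± 0.10, adjusted p = 5.14e-08). RXRA, the partner receptor, lay the other way at 166, 199 and 190.1 and 402, 304 and 267 (log2 -0.79 ± 0.16, adjusted p = 0.00045), although the mean over its probe sets was not called. RARA arrays did not overlap between the agents, and neither did those of RXRA. PRAME, a repressor of retinoic acid receptor signalling, and NR2F1, the orphan receptor COUP-TF1, were also higher with VPA, by log2 -0.90 ± 0.14 and -0.62 ± 0.10 as ATRA minus VPA (adjusted p = 2.72e-05 and 2.33e-05). PRAME read 76.04, 78.6 and 78.4 with ATRA, 159, 135 and 142 with VPA and 136, 183 and 243 with both agents. NRIP1, a ligand-dependent corepressor, and RXRB were higher with ATRA by 0.58 and 0.50 log2 units. RARB, a classical retinoid target, was not called: it read 19.1, 19.1 and 16.3 with ATRA and 19.3, 21.5 and 17.97 with VPA (log2 -0.11 ± 0.10, adjusted p = 0.476), near the lower quartile of the arrays. At 72 h the RARB difference was 0.86 log2 units (adjusted p = 1.85e-07), and the combination arrays at 24 h read 30.4, 32.1 and 28.5.

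CYP26A1 and RARB are shown as sequences because they are the named genes whose promoters hold a retinoid direct repeat, and the arrays separated the agents for one and not for the other. The half-site AGGTCA was searched for together with its variants AGTTCA (present in both genes below), the related form GGTTCA and finally the form GGGTCA, in direct repeat with a spacer of 5 bases (DR5) or 2 bases (DR2), on both strands, in RefSeq windows from 250 bases before to 50 bases after a start. The 250 bases before the start are printed 5′ to 3′ on the gene's strand from GRCh38.p14, chr10:93073643-93073892 (+) for CYP26A1 and chr3:25428013-25428262 (+) for RARB, with the half-sites in capitals.
CYP26A1: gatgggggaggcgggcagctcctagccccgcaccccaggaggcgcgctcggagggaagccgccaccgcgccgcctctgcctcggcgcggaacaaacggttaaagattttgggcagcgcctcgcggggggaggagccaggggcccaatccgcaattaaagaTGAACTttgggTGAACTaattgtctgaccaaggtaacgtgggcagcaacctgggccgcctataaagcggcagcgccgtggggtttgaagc
RARB: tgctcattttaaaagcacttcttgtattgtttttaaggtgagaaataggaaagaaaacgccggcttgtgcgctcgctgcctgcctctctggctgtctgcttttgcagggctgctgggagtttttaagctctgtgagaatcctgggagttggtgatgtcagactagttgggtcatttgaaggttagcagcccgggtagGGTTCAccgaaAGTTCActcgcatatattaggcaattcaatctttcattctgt
The CYP26A1 repeat runs from 90 to 74 bases before the start and lies on the other strand, where it reads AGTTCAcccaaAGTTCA. The RARB repeat runs from 53 to 37 bases before the start and reads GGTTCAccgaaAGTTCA. A DR5 was present for 29 of 27305 genes of the promoter table (0.106%) and for 10 of the 9593 tested genes that were matched to it (0.104%). It was present for 1 of 137 matched genes called at least 2-fold higher with ATRA, CYP26A1, and for 0 of 122 called at least 2-fold higher with VPA. A DR2 was present for 14 genes of the table (0.051%) and for 1 of the 137, CASD1, a sialic acid acetyltransferase gene, which was higher with ATRA by 1.66 log2 units. These matches describe letters in a short window and no binding was measured.

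Reported retinoid targets that were called were mostly higher with ATRA. Of 27 measured genes of the retinoid response list, 15 were higher with ATRA and 2 with VPA (63.0% called, against 27.5% over all genes). The median difference was 0.53 log2 units, against -0.02 over all genes. With the 3'/5' covariate the counts were 15 and 2, and without VPA replicate 2 they were 15 and 1. The list's median level relative to the mean of the 6 arrays was 0.21 to 0.38 in the ATRA arrays, -0.29 to -0.09 in the VPA arrays, -0.52 to -0.26 with DMSO and 0.18 to 0.21 in the combination. The members named here were among the largest differences and the list was drawn up with earlier results of these data known. PTPRH, a receptor tyrosine phosphatase, read 635, 477 and 515 with ATRA and 40.4, 43.5 and 38.6 with VPA (log2 3.69 ± 0.14, adjusted p = 6.23e-16). HTR2B, a serotonin receptor that signals through Gq, read 1232, 1016 and 1292 and 119.5, 110.1 and 132 (log2 3.28 ± 0.13, adjusted p = 7.33e-16). HTR2B was higher still in the combination arrays, at 2071, 2700.1 and 2942, and its VPA arrays stood above the DMSO arrays at 39.7, 57.7 and 52.1. PLAT, tissue plasminogen activator, was at 1385, 1262 and 1394 against 337, 422 and 375 (log2 1.83 ± 0.10, adjusted p = 7.28e-13). Among the rest of the called members TGM2, a transglutaminase, and AQP3, a water and glycerol channel, were higher with ATRA by 1.21 and 2.36 log2 units. RAI14 and RARRES1 were higher with VPA, by log2 -1.50 and, from an ATRA mean under 25, -0.40 as ATRA minus VPA, although their names record retinoid induction or response in other cells. ZNF423, TFAP2A, ICAM1 and CDX1 were within 0.07 log2 units of 0 and were not called.

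HOX genes, which pattern the body axis, and their TALE partners were mostly higher with ATRA where they were called. Of 31 measured, 9 were higher with ATRA and 1, HOXC13, with VPA from an ATRA mean under 25, and 10 of the 31 were under 25 in both groups. The share called was 32.3%, beside 27.5% over all genes. With the 3'/5' covariate the counts were 7 and 1. HOXD4 read 154, 183 and 156 with ATRA and 47.6, 53.9 and 42.2 with VPA (log2 1.76 ± 0.11, adjusted p = 4.35e-12), and HOXD9 189.9, 181 and 196 and 72.6, 98.1 and 73.5 (log2 1.22 ± 0.16, adjusted p = 2.98e-06). The ATRA arrays of both lay above every VPA and DMSO array, the DMSO arrays of HOXD4 reading 47.8, 41.2 and 50.99. HOXD1 and the TALE gene MEIS1 were higher with ATRA by log2 0.94 ± 0.12 and 0.85 ± 0.11 (adjusted p = 1.4e-06 and 2.54e-06).

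The largest difference of all was in PRKCH, which encodes protein kinase C eta. It read 911, 877 and 1084 with ATRA and 39.5, 42.4 and 35.8 with VPA, a 23.8-fold difference (log2 4.57 ± 0.12, adjusted p = 7.37e-19). The VPA arrays lay within the range of the DMSO arrays or just under it (37.5, 54.04 and 43.4), and the combination arrays read 1330.3, 1400.2 and 1330.4, above all ATRA arrays. A second, dimmer probe set of PRKCH differed by 2.37 log2 units. Other protein kinase C genes did not share it: PRKCZ, the zeta isoform, was higher with VPA at 547, 567 and 395 against 269.9, 302 and 263 (log2 -0.84 ± 0.14, adjusted p = 4.96e-05), as were PRKCI and PRKCA by log2 -0.39 and -0.30. PRKCE was called higher with ATRA by log2 1.99 ± 0.61 (adjusted p = 0.015), but its VPA arrays read 38.2, 36.2 and 104 and it was not called with the 3'/5' covariate (adjusted p = 0.17), without VPA replicate 1 or without VPA replicate 2 (0.061 and 0.072), or as the mean of its probe sets. RET, the receptor tyrosine kinase for GDNF family ligands, read 3047, 2851 and 3008 with ATRA and 839.8, 780.1 and 662 with VPA (log2 1.97 ± 0.13, adjusted p = 1.93e-11), and 2300.0, 2230.0 and 2546 in the combination. NTRK2, the BDNF receptor, was at 44.7, 57.3 and 46.3 and 40.05, 64.6 and 49.1 and did not pass (log2 -0.03 ± 0.14, adjusted p = 0.904). In the list of GDNF, neurotrophin and protein kinase C genes, 5 of 23 were higher with ATRA and 5 with VPA. The share called was 43.5%, against 27.5% over all genes, and the counts were 4 and 2 with the 3'/5' covariate.

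Genes of the immediate early response and of the feedback on ERK, the kinase at the end of the RAS pathway, differed in both directions. Of 36 measured, 15 were higher with ATRA, 5 were higher with VPA and 16 were not called (55.6% called, against 27.5% over all genes). The median difference was 0.21, and the counts were 17 and 2 with the 3'/5' covariate. The count higher with VPA was 3 without ATRA replicate 1 and without VPA replicate 2. DUSP6, the phosphatase that switches ERK off in the cytoplasm, read 1118, 1074 and 1171 with ATRA and 109, 81.2 and 91.9 with VPA, an 11.9-fold difference (log2 3.57 ± 0.12, adjusted p = 1.14e-16). IER3 read 487, 469.6 and 476 and 92.4, 116 and 76.7 (log2 2.34 ± 0.13, adjusted p = 1.34e-12), and its VPA arrays were themselves above the DMSO arrays at 41.7, 32.3 and 43.6. SPRY2, an inhibitor of receptor tyrosine kinase signalling, was at 847, 800.3 and 924 against 353, 271 and 338 (log2 1.42 ± 0.13, adjusted p = 7e-09), and SPRY4 was higher with ATRA by 1.42. The other ERK phosphatases DUSP4 and DUSP5 were higher with ATRA by 0.94 and 0.96 log2 units and SPRED2 by 0.59. Not all members lay that way: the AP-1 genes FOS and JUN were higher with VPA, by log2 -0.56 and -0.40, while JUNB was higher with ATRA by 0.68, as was EGR3 by 0.96 from a VPA mean under 25. PHLDA1 was at 449, 424 and 451 with ATRA, 142, 142 and 121 with VPA and 539, 539 and 569 with both (log2 1.70 ± 0.13, adjusted p = 2.45e-10).

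Other genes among the 12 largest on the ATRA side belonged to no single group. PRSS12, neurotrypsin, a secreted protease of neurons, read 597, 503 and 743 with ATRA and 50.3, 60.5 and 46.7 with VPA (log2 3.51 ± 0.14, adjusted p = 1.06e-15), and its combination arrays lay between at 161, 233 and 272. PLEKHA6 read 532, 551 and 612 and 50.3, 54.1 and 55.6 (log2 3.38 ± 0.10, adjusted p = 6.28e-18). MAFF, a small MAF transcription factor, was at 718, 872 and 681 against 138, 132.9 and 93.3 (log2 2.64 ± 0.16, adjusted p = 3.73e-12). PLK2, a polo-like kinase induced by activity and stress, was at 1529, 1492 and 1354 against 315, 262 and 231 (log2 2.44 ± 0.11, adjusted p = 6.59e-15). For PRSS12, PLEKHA6, MAFF and PLK2 every ATRA array lay above every VPA array and every DMSO array.

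**Figure D2:**
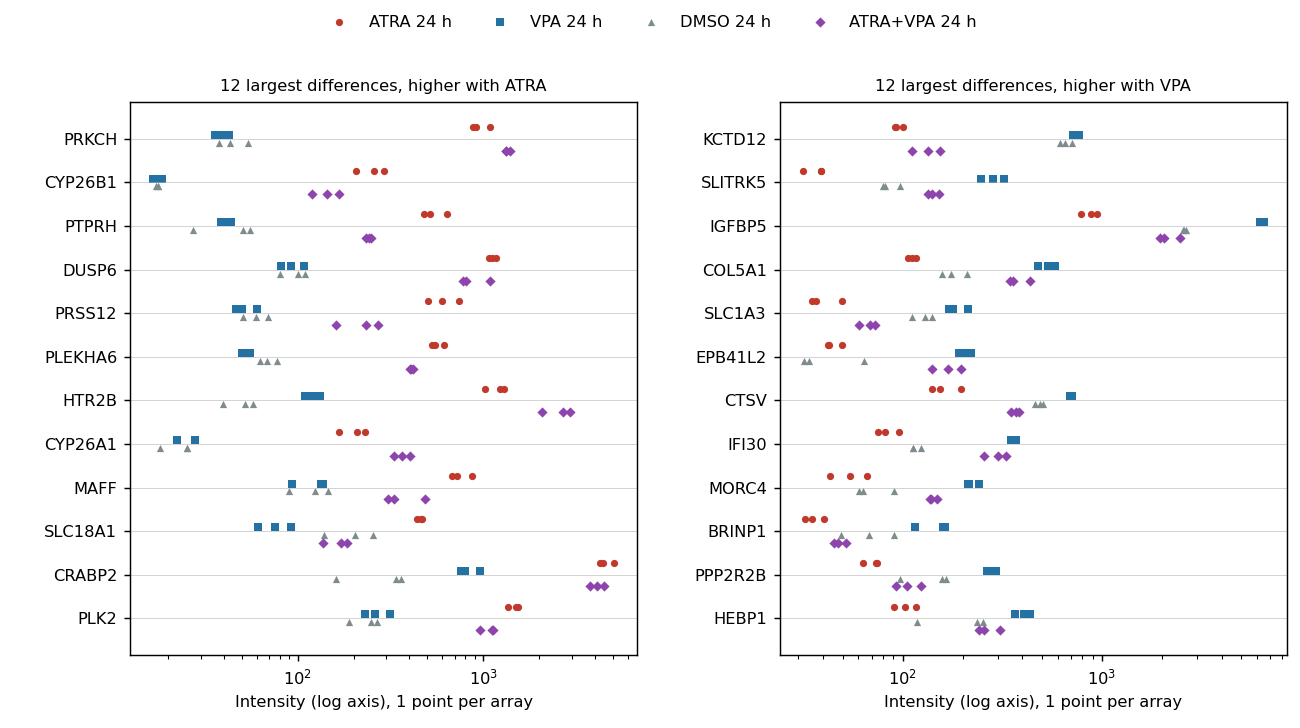
Intensity in each 24 h array (log axis, 1 point per array, 3 arrays per group) for the 12 genes with the largest differences in each direction; red circles are ATRA, blue squares VPA, grey triangles DMSO and purple diamonds ATRA plus VPA. On the ATRA side the DMSO arrays mostly lie beside the VPA arrays, as for PRKCH and DUSP6. On the VPA side they lie beside the VPA arrays for KCTD12 and beside the ATRA arrays for EPB41L2.

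On the VPA side the largest difference was in KCTD12, an auxiliary subunit of GABA-B receptors. It read 101, 92.3 and 91.2 with ATRA and 717, 765 and 746 with VPA, 7.77-fold higher with VPA (log2 -2.96 ± 0.11, adjusted p = 2.62e-16). The DMSO arrays were at 619.6, 712 and 656, close to VPA, and the combination arrays at 134, 155 and 111, close to ATRA. SLITRK5, a synaptic adhesion protein, read 39.1, 38.8 and 31.5 and 286, 323 and 248 (log2 -2.93 ± 0.14, adjusted p = 3.43e-14), with DMSO between them at 79.5, 82.05 and 96.95. IGFBP5, a secreted binding protein of insulin-like growth factors, was at 788, 888 and 943 with ATRA and 6526, 6428 and 6267 with VPA (log2 -2.88 ± 0.11, adjusted p = 7.33e-16). The DMSO arrays of IGFBP5 read 2551, 2645 and 2579 and the combination arrays 2469, 1957 and 2055, so that the single agents stood on opposite sides of both.

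SLC1A3, a glutamate transporter, read 49.9, 36.7 and 35.03 with ATRA and 178, 214 and 172 with VPA (log2 -2.20 ± 0.14, adjusted p = 1.22e-11). EPB41L2, a protein 4.1 of the membrane skeleton, was at 42.8, 49.7 and 41.99 and 191, 222 and 208 (log2 -2.18 ± 0.15, adjusted p = 3.97e-11); its DMSO arrays, 63.7, 34.02 and 31.8, were near ATRA and its combination arrays, 197, 169 and 140.1, near VPA. The lysosomal genes CTSV, a cysteine protease, and IFI30, a thiol reductase that aids antigen processing, were higher with VPA by log2 -2.10 ± 0.10 and -2.08 ± 0.12 as ATRA minus VPA (adjusted p = 3.73e-14 and 1.43e-12). CTSV read 463, 509 and 489 with DMSO, between the agents, and IFI30 112, 113 and 124, near its ATRA arrays at 75.6, 96.2 and 81.4. MORC4 read 43.2, 66.3 and 54.5 with ATRA and 214, 215 and 243 with VPA (log2 -2.03 ± 0.13, adjusted p = 6.64e-12). BRINP1, a neural gene named for induction by BMP and retinoic acid, was at 32.2, 40.3 and 35.04 with ATRA, 160.3, 116 and 163 with VPA and 45.04, 52.2 and 47.6 with both (log2 -1.99 ± 0.16, adjusted p = 4.86e-10). PPP2R2B, a neuronal regulatory subunit of phosphatase 2A, and HEBP1, a haem-binding protein, differed by -1.99 ± 0.13 and -1.96 ± 0.15 (adjusted p = 1.31e-11 and 2.88e-10). Both genes had all VPA arrays above all ATRA and DMSO arrays.

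The most even block of genes was that of cell division, which was higher with VPA. Of 45 measured genes of G2 and mitosis, 42 were higher with VPA, 0 were higher with ATRA and 3 were not called, PLK1, TPX2 and BUB3. The median difference was -0.47 log2 units, so the shift was wide and shallow, and 0 of the 45 reached 2-fold. All 45 had a mean of at least 100, a level at which 42.6% of all genes were called in one direction or the other. The count was 38 with the 3'/5' covariate and 35 without VPA replicate 2, and 35 to 40 over the 6 fits that each left out 1 array. CENPA, the histone variant of centromeres, read 1175, 1024 and 1177 with ATRA and 1959.6, 2221 and 2364 with VPA (log2 -0.95 ± 0.08, adjusted p = 2.31e-09). TOP2A, the topoisomerase of dividing cells, read 2229.6, 2210.5 and 2271 and 4201, 3442 and 4242 (log2 -0.82 ± 0.09, adjusted p = 2.99e-07), AURKA, a spindle kinase, 1987, 2123 and 1949.7 and 3581, 3804 and 3221 (log2 -0.80 ± 0.10, adjusted p = 1.64e-06). MKI67, the proliferation marker, was at 819.5, 912 and 858 with ATRA and 1430.1, 1517 and 1311 with VPA (log2 -0.72 ± 0.09, adjusted p = 2.19e-06), and HMMR at 1164, 1385 and 1204 and 1992, 2196 and 2029.7 (log2 -0.73 ± 0.09, adjusted p = 1.52e-06). For all 5 genes every VPA array lay above every ATRA array on the brightest probe set. Dimmer probe sets differed by less, at -0.24, -0.23 and -0.68 for MKI67 and -0.34 for HMMR. Those of CENPA and TOP2A differed by -0.59 and -0.48, and those of AURKA by -0.51 and, at a mean near 31, 0.04.

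In the division genes 2 of the 3 DMSO arrays lay nearer to the VPA arrays, and the combination arrays lay between the agents. The median of the G2 and mitosis list, relative to the 6 arrays compared, was -0.25 to -0.20 in the ATRA arrays and 0.22 to 0.25 in the VPA arrays. It was -0.03, 0.17 and 0.26 in the DMSO arrays, lowest in replicate 1, and 0.00 to 0.03 in the combination arrays. Genes of DNA replication and the G1/S transition lay the same way, with 27 of 46 higher with VPA, 0 higher with ATRA and a median of -0.41. The share called was 58.7%, against 27.5% over all genes. With the 3'/5' covariate 22 were called. E2F1, the S-phase transcription factor, read 239.8, 253 and 223 with ATRA and 462, 404 and 369 with VPA (log2 -0.78 ± 0.12, adjusted p = 3.21e-05), and CDC7, the kinase that fires replication origins, 695, 703 and 667 and 1122, 1246 and 1143 (log2 -0.76 ± 0.10, adjusted p = 1.48e-06). POLA2 and FEN1 differed by -0.78 ± 0.12 and -0.67 ± 0.13 (adjusted p = 1.41e-05 and 0.000224). The dimmer probe sets of E2F1 and FEN1 differed by -0.73 ± 0.12 and -0.18 ± 0.14. RRM2, TYMS, MCM4 and CDC6 were within 0.15 log2 units of 0 and were not called, as was CCND1 at 0.23.

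CDKN1A, the p21 inhibitor of cyclin-dependent kinases, was higher with ATRA. It read 409.9, 536 and 483 with ATRA, 127, 129 and 97.1 with VPA, 132, 67.8 and 90.8 with DMSO and 285, 307 and 315 with both (log2 2.01 ± 0.19, adjusted p = 1.51e-08). The growth-restraining list as a whole was divided, 5 of 22 higher with ATRA and 6 with VPA. GDF15, a stress cytokine, was at 91.6, 76.9 and 86.7 with ATRA and 23.7, 28.1 and 29.01 with VPA (log2 1.63 ± 0.15, adjusted p = 9.87e-09), and GADD45A was higher with ATRA by 0.99. GAS1 and GAS6, named for growth arrest, were higher with VPA at log2 -1.31 ± 0.15 and -1.25 ± 0.12 (adjusted p = 3.1e-07 and 2.96e-08). GAS6, a ligand of AXL family receptors, read 112, 137 and 122 with ATRA and 297, 337 and 255 with VPA. MYCN was at 6266, 6166 and 6281 with ATRA and 6648, 6769 and 7243 with VPA, a log2 difference of -0.14 ± 0.07 that did not pass (adjusted p = 0.134). The arrays did not overlap, as for 38.4% of all genes. Dimmer probe sets of MYCN differed the other way, by 0.68 ± 0.39 and 0.45 ± 0.36. The brightest probe set of MYCN was called at adjusted p = 0.012 after a second quantile normalization, at 0.048 with a pseudocount of 32 and at 0.045 with an intensity trend and robust prior. Of 40 MYC network, target and ribosome biogenesis genes, 6 were higher with ATRA and 6 with VPA, a share near that over all genes. MXD4 and MXI1, which compete with MYC for MAX, were higher with ATRA by 0.96 ± 0.18 and 0.71 ± 0.09 (adjusted p = 0.000287 and 1.44e-06), and NOP56, a nucleolar protein, was higher with VPA (-0.56 ± 0.10, adjusted p = 6.6e-05).

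Sterol and fatty acid synthesis lay the other way as a block. Of 30 measured genes, 20 were higher with ATRA and 0 were higher with VPA (66.7% called, against 27.5% over all genes). The median difference was 0.43 log2 units. With the 3'/5' covariate 21 and 2 were called, and without VPA replicate 2, 19 and 1. HMGCS1, which feeds the mevalonate pathway, read 1412, 1616 and 1435 with ATRA and 678, 791 and 614 with VPA (log2 1.10 ± 0.11, adjusted p = 1.54e-08). DHCR7, the last enzyme of cholesterol synthesis, read 292, 199.8 and 289 and 137, 90.5 and 104 (log2 1.23 ± 0.16, adjusted p = 2.09e-06). CYP51A1, the lanosterol demethylase, read 1420.2, 861 and 1194 and 502, 355 and 553 (log2 1.29 ± 0.26, adjusted p = 0.000443), its brightest probe set differing more than the other one at 0.39. In each of these genes all ATRA arrays exceeded all VPA arrays, but replicate 2 was the lowest ATRA array for DHCR7 and CYP51A1. MVD was higher with ATRA by 0.98 ± 0.15 (adjusted p = 2.28e-05), FASN and SQLE by 0.94 and the regulators SREBF1, SREBF2 and INSIG1 by 0.74, 0.44 and 0.78. Members that did not pass included FDPS at 0.19, LSS at 0.19 and EBP at -0.36.

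The sterol list's median was 0.22 to 0.25 in the ATRA arrays and -0.34 to -0.17 in the VPA arrays. In the DMSO arrays it was -0.12, 0.07 and 0.08, lowest in replicate 1, and in the combination arrays -0.22 to -0.16, near the VPA arrays. Genes for fatty acid oxidation, acyl-CoA handling and GABA breakdown were divided, 6 of 39 higher with ATRA and 9 with VPA. The share called was 38.5%, against 27.5% over all genes, and the count higher with VPA was 5 with the 3'/5' covariate. CRAT, carnitine acetyltransferase, was higher with VPA (log2 -1.02 ± 0.17, adjusted p = 4.7e-05), as were ECI2, an enoyl-CoA isomerase (-0.73 ± 0.13, adjusted p = 0.000151), and ABAT, the GABA transaminase, at -0.72. PPARD, a fatty acid receptor, read 1521, 1761 and 1623 with ATRA and 890.2, 908 and 744 with VPA (log2 0.95 ± 0.12, adjusted p = 6.79e-07).

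**Figure D3:**
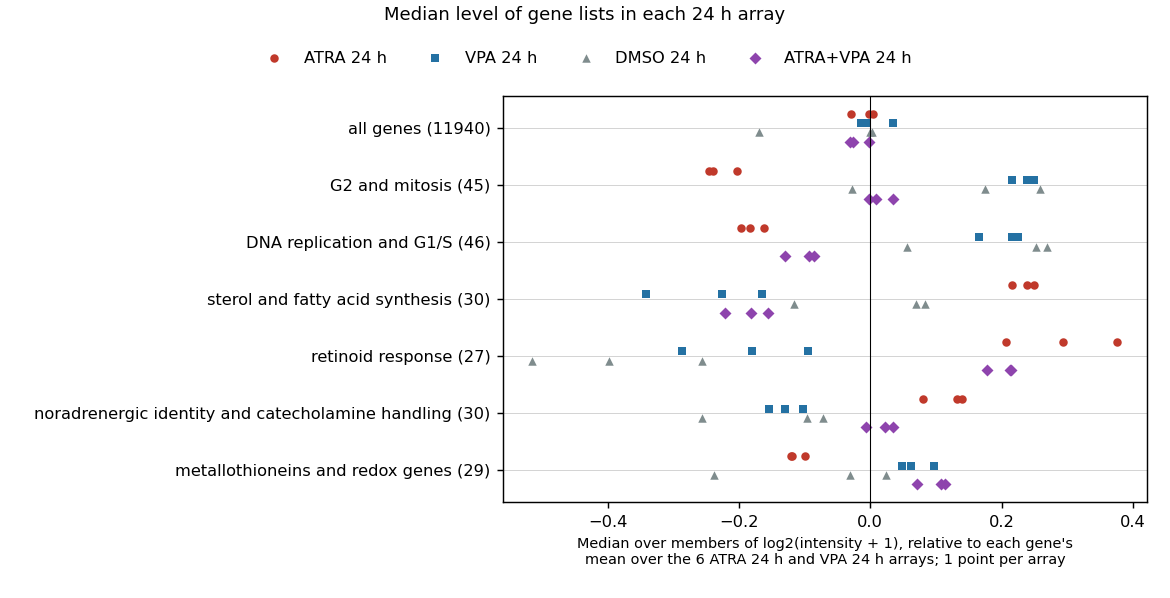
Median over the members of each gene list of log2(intensity + 1), relative to each gene's mean over the 6 arrays compared, with 1 point per 24 h array; red circles are ATRA, blue squares VPA, grey triangles DMSO and purple diamonds ATRA plus VPA, and the number of measured members stands in parentheses. The combination arrays lie with the VPA arrays for sterol synthesis (-0.22 to -0.16) and near the middle for G2 and mitosis (0.00 to 0.03), and 1 DMSO array, replicate 1, lies low in most lists and over all genes.

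Neuronal genes differed in both directions. Of 37 measured genes of the neuronal cytoskeleton and neurite, 15 were higher with ATRA and 9 with VPA, with a median of 0.27 (64.9% called, against 27.5% over all genes). DPYSL3, a collapsin response mediator of axon growth, read 1246, 1268 and 1158 with ATRA and 383, 350.7 and 312 with VPA (log2 1.81 ± 0.09, adjusted p = 2.14e-13). DCLK1, a microtubule-binding kinase of migrating neurons, read 219, 215 and 204 and 61.2, 74.02 and 62.04 (log2 1.68 ± 0.07, adjusted p = 2.6e-15), and ELAVL4, the neuronal RNA-binding protein HuD, 4393, 4096 and 4436 and 1508, 1423 and 1415 (log2 1.57 ± 0.09, adjusted p = 1.93e-12). Their ATRA arrays lay above all VPA and DMSO arrays, with the combination between. DCX, NRCAM and TUBB3 were higher with ATRA by 0.84, 0.93 and 0.68. GAP43, the growth cone protein, was higher with VPA at 2492, 2278 and 2409.7 against 1579, 1678 and 1653 (log2 -0.55 ± 0.07, adjusted p = 5.64e-07), as were the axonal motor KIF1A (-0.95 ± 0.23, adjusted p = 0.00233), MAPT, which encodes tau, at -0.78 and NCAM1 at -0.70. The neurofilament gene NEFM did not pass, at 4025, 4269 and 4178 with ATRA and 3839, 4149 and 3711 with VPA (log2 0.09 ± 0.06, adjusted p = 0.289).

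Synaptic vesicle genes leaned to VPA, 8 of 33 higher with VPA and 3 with ATRA, with 4 called higher with VPA under the 3'/5' covariate. RAB3A, the vesicle GTPase, read 195, 262 and 197 with ATRA and 441, 444 and 403 with VPA (log2 -0.99 ± 0.14, adjusted p = 7.37e-06), and HOMER1, a postsynaptic scaffold, 66.2, 79.7 and 64.9 and 166, 155 and 109 (log2 -0.999 ± 0.15, adjusted p = 1.87e-05). SYNGR3, a vesicle membrane protein, was higher with VPA by log2 -1.32 ± 0.20 as ATRA minus VPA (adjusted p = 1.25e-05), whereas SYT11 was higher with ATRA by 1.01 ± 0.09 (adjusted p = 9.69e-09). Of 48 ion channels and transmitter receptors, 8 were higher with VPA and 2 with ATRA (20.8% called, against 27.5% over all genes). Of the 48, 35 were under 100 in both groups. HTR3A, a serotonin-gated channel, read 43.2, 52.8 and 24.5 with ATRA and 129, 136 and 169.9 with VPA (log2 -1.89 ± 0.19, adjusted p = 4.35e-08). CHRNA3, the nicotinic subunit of autonomic ganglia, was higher with ATRA at 3528, 3317 and 3515 against 1737, 1833 and 1772 (log2 0.96 ± 0.07, adjusted p = 4.88e-11), with the DMSO arrays between at 2332, 2411 and 2355.

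Noradrenergic and neuroendocrine genes leaned to ATRA. Of 30 genes of noradrenergic identity and catecholamine handling, 16 were higher with ATRA and 3 with VPA (14 and 2 with the 3'/5' covariate), with a median of 0.24. The share called was 63.3%, against 27.5% over all genes. SLC18A1, which loads monoamines into vesicles, read 459, 439 and 465 with ATRA and 60.8, 92.03 and 75.3 with VPA (log2 2.58 ± 0.14, adjusted p = 5.09e-13). The DMSO arrays of SLC18A1 lay between at 138, 204 and 254 and so did the combination at 185, 136 and 172. SLC6A2, the noradrenaline transporter, read 3567, 3261 and 3136 and 1529.9, 1141 and 1508 (log2 1.26 ± 0.11, adjusted p = 2.25e-09), and SOX4 4274, 4185 and 4672 and 1508, 1267 and 1556 (log2 1.60 ± 0.10, adjusted p = 3.73e-12). DBH, which makes noradrenaline, and PHOX2A, a master transcription factor of these cells, were higher with ATRA by 0.58 ± 0.10 and 0.73 ± 0.09 (adjusted p = 0.000114 and 8.9e-07). TH, the rate-limiting enzyme, was called at log2 0.54 ± 0.16 (adjusted p = 0.0146), but its arrays overlapped, 268, 167 and 258 against 177, 138 and 152, and it was not called with the 3'/5' covariate (adjusted p = 0.31), in fits of the arrays compared alone or of all 12 groups (0.059 and 0.086), or without ATRA replicate 1, ATRA replicate 3 or VPA replicate 2 (0.10, 0.086 and 0.076). GATA3, another identity factor, was higher with VPA at 3469.9, 3330.2 and 3299 against 2197, 2202 and 2349.8 (log2 -0.58 ± 0.10, adjusted p = 7.5e-05), as was MAOA, which degrades monoamines (-1.09 ± 0.16, adjusted p = 1.39e-05).

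Of 33 neuroendocrine secretory genes, 12 were higher with ATRA and 4 with VPA (48.5% called, against 27.5% over all genes). GAL, the peptide galanin, read 1481, 1420.5 and 1507 with ATRA, 542, 573 and 519 with VPA and 405, 474 and 499 with both (log2 1.43 ± 0.07, adjusted p = 2.63e-13), so that the combination lay below even the VPA arrays. SCG5, the chaperone of a prohormone convertase, read 559.7, 666 and 640.3 and 237, 231 and 196 (log2 1.49 ± 0.11, adjusted p = 1.51e-10). CRH, corticotropin-releasing hormone, read 7325, 7586 and 7426 and 3966, 3899 and 3734 (log2 0.95 ± 0.06, adjusted p = 4.09e-11). VGF and CHGB were higher with ATRA by 1.04 ± 0.13 and 0.63 ± 0.10 (adjusted p = 8.91e-07 and 1.92e-05), and NPY and TAC3 were higher with VPA at log2 -0.41 and -0.64. Counts of this list were 12 and 4 with the 3'/5' covariate too.

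Growth factor, Wnt and matrix genes differed in both directions and often by large amounts. Of 41 genes of Wnt readouts and the IGF axis, 10 were higher with ATRA and 15 with VPA, 5 and 6 of them by at least 2-fold. The share called was 61.0%, against 27.5% over all genes. FZD7, a Wnt receptor, read 487, 536 and 521 with ATRA and 146, 145 and 119 with VPA (log2 1.91 ± 0.10, adjusted p = 1.34e-13), while the receptors FZD1, FZD2 and FZD4 were higher with VPA at -1.14, -1.21 and -0.86. SFRP1, a secreted Wnt antagonist, read 683, 619 and 702 with ATRA and 2281, 2234 and 2054 with VPA (log2 -1.71 ± 0.09, adjusted p = 1.34e-13), and DKK3 lay the same way at -1.32. IRS2, an adaptor of the insulin and IGF receptors, read 1769.8, 1839.8 and 1897 and 472, 646 and 545 (log2 1.74 ± 0.10, adjusted p = 3.73e-12), while IRS1 was higher with VPA at -0.79. IGF2 was higher with ATRA by 1.00. Of 38 BMP, TGF-beta and Notch genes, 7 were higher with ATRA and 4 with VPA (28.9% called, near the 27.5% over all genes). JAG2, a Notch ligand, and NOTCH2 were higher with VPA at -1.51 ± 0.14 and -1.46 ± 0.19 (adjusted p = 8.02e-09 and 1.51e-06), the ATRA arrays of NOTCH2 reading 22.4, 25.1 and 21.7, a level not shown to be above background. TGFB1 was higher with ATRA (1.06 ± 0.16, adjusted p = 2.14e-05).

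Of 56 matrix genes and matrix enzymes, 8 were higher with ATRA and 15 with VPA (41.1% called, against 27.5% over all genes). The counts were 10 and 10 with the 3'/5' covariate. COL5A1, a chain of collagen V, read 111, 117 and 106 with ATRA and 539, 583 and 481 with VPA (log2 -2.25 ± 0.13, adjusted p = 2.58e-12). LUM, lumican, read 227, 254 and 248 and 575, 574 and 592 (log2 -1.25 ± 0.09, adjusted p = 1.33e-10). COL1A1 lay the other way at 122, 138 and 126 with ATRA and 43.8, 50.5 and 28.96 with VPA (log2 1.65 ± 0.17, adjusted p = 4.33e-08), on 1 of its 4 probe sets, the others being under 40. FN1 and TIMP1 were higher with ATRA by 1.38 and 1.58. Of 8 mesenchymal markers, 2 were called in each direction, and the summed intensity was 7115 to 7887 with ATRA and 7925 to 8536 with VPA. Among 43 adhesion genes, 5 were higher with ATRA and 7 with VPA (27.9% called, near the 27.5% over all genes). CD9, a tetraspanin, read 1136, 1088 and 1200.5 with ATRA and 2714, 2588 and 3012 with VPA (log2 -1.28 ± 0.09, adjusted p = 1.69e-10), and CXADR, the coxsackievirus and adenovirus receptor, 71.9, 91.9 and 94.8 and 162, 166 and 155 (log2 -0.90 ± 0.14, adjusted p = 2.59e-05). EPB41L1 and MCAM were higher with VPA at -1.62 ± 0.21 and -1.56 ± 0.22 (adjusted p = 1.34e-06 and 4.78e-06). Of 10 epithelial markers, 2 were higher with ATRA, KRT19 at 488, 344 and 536 against 105, 88.5 and 116 (log2 2.12 ± 0.17, adjusted p = 7.82e-10) and EPCAM near background. The summed epithelial level was 568.5 to 747.8 with ATRA and 294.3 to 329.9 with VPA, with CDH1, KRT5, KRT14 and KRT7 under 25 in both groups, and the part of these markers in the adhesion counts was not tested. Of 41 axon guidance genes, 6 were called in each direction (29.3% called, near the 27.5% over all genes), with SEMA3F higher with VPA (-1.51 ± 0.16, adjusted p = 5.61e-08) and EFNB2 and EPHA2 higher with ATRA (0.93 ± 0.09 and 0.98 ± 0.16, adjusted p = 3.18e-08 and 4.25e-05).

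Transcripts of the chromatin enzymes differed mostly by small amounts. Of 37 histone deacetylases, acetyltransferases and readers, 9 were higher with ATRA and 4 with VPA (35.1% called, against 27.5% over all genes). The counts were 6 and 2 with the 3'/5' covariate. The count higher with ATRA was 5 without ATRA replicate 1 and without VPA replicate 3. HDAC9 read 207, 215 and 192 with ATRA and 444, 403 and 428 with VPA (log2 -1.05 ± 0.11, adjusted p = 9.29e-08), with the DMSO arrays at 532, 444 and 441 and the combination at 242, 215 and 197. HDAC1, a class I deacetylase that VPA inhibits, was higher with VPA at 1477, 1530.4 and 1137 against 979, 937 and 978 (log2 -0.51 ± 0.10, adjusted p = 0.000361). HDAC2 was called higher with ATRA by 0.17 ± 0.06 (adjusted p = 0.0432), and the call was lost in 10 of the alternatives tried, 5 of them fits that left out 1 array. KAT6B, an acetyltransferase, read 386, 433 and 376 with ATRA and 158, 166 and 158 with VPA (log2 1.30 ± 0.09, adjusted p = 1.01e-10). Of 57 histone genes, 10 were higher with ATRA and 4 with VPA (24.6% called, near the 27.5% over all genes), and 4 and 3 with the 3'/5' covariate. The count higher with ATRA was 5 without ATRA replicate 1 and 6 without VPA replicate 2, and that higher with VPA was 2 without ATRA replicate 1. H2BC12 read 2737, 2379.5 and 2783 with ATRA, 1187, 1162 and 1466 with VPA and 2285, 2157 and 2493 with DMSO (log2 1.05 ± 0.10, adjusted p = 3.04e-08), and H4C3 was higher with VPA (-0.91 ± 0.13, adjusted p = 7.26e-06). Histone genes are near-identical copies, so that their probe sets may share signal.

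Of 35 genes reported to respond to deacetylase inhibitors, 12 were higher with VPA and 5 with ATRA, and 9 and 5 with the 3'/5' covariate. The share called was 48.6%, against 27.5% over all genes. The list as a whole was hardly shifted, with a median difference of -0.045 log2 units, beside -0.02 over all genes. Of the 35, 16 had a positive difference, and 2 were at least 2-fold higher with each agent. Of 29 metallothioneins, which bind zinc, and redox genes, 9 were higher with VPA and 2 with ATRA (37.9% called, against 27.5% over all genes). MT2A read 220.2, 311 and 207 with ATRA and 827, 803 and 659 with VPA (log2 -1.64 ± 0.14, adjusted p = 1.25e-09), and MT1X 73.98, 80.97 and 96.9 and 259.8, 294 and 234 (log2 -1.64 ± 0.14, adjusted p = 4.11e-09). MT1G and MT1H differed by -1.05 ± 0.16 and -1.05 ± 0.13 (adjusted p = 2.15e-05 and 5.48e-07), and these copies share much sequence. CLU and GSN, a secreted chaperone and an actin-severing protein, were higher with VPA at -0.96 and -0.46. ABCB1, the drug efflux pump, is on the same list and lay the other way at 2430.0, 2122 and 2564 with ATRA, 992, 995 and 991 with VPA and 642, 747 and 797 with DMSO (log2 1.25 ± 0.12, adjusted p = 2.99e-08). CDKN1A, a gene that deacetylase inhibitors are known to induce, was also higher with ATRA, as given above.

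Immune, stress and survival genes showed isolated large differences. Of 37 genes of MHC class I and interferon, 9 were higher with VPA and 2 with ATRA (29.7% called, near the 27.5% over all genes). HLA-E, ISG15 and PSMB10 were higher with VPA at -0.88 ± 0.11, -0.92 ± 0.15 and -0.83 ± 0.14 (adjusted p = 1.15e-06, 5.88e-05 and 5.4e-05). IRF9, the DNA-binding part of the interferon-activated complex, lay the other way at 528, 494 and 566 with ATRA and 159, 121 and 136 with VPA (log2 1.93 ± 0.12, adjusted p = 8.82e-12). BCL2, which blocks apoptosis, read 526, 543 and 468 with ATRA, 136, 145 and 116 with VPA and 146, 181 and 189.9 with DMSO (log2 1.94 ± 0.12, adjusted p = 4.62e-12), while DIABLO, which promotes it, read 2462, 2641 and 2445 and 1178, 1169.5 and 1106 (log2 1.13 ± 0.07, adjusted p = 8.54e-12). The apoptosis list counted 10 of 36 higher with ATRA and 3 with VPA (36.1% called, against 27.5% over all genes). The first count was 6 with the 3'/5' covariate. It was 4 and 3 without ATRA replicates 1 and 3, and 6, 6 and 4 without VPA replicates 1, 2 and 3. TNFRSF10B, a death receptor for TRAIL, was higher with VPA (-0.95 ± 0.18, adjusted p = 0.000191). Of 38 amino acid and ER stress genes, 9 were higher with each agent (47.4% called, against 27.5% over all genes). DDIT4, an inhibitor of mTORC1, read 477, 536 and 475 with ATRA and 186, 149 and 178 with VPA (log2 1.54 ± 0.11, adjusted p = 1.35e-10), and STC2 was higher with VPA (-1.28 ± 0.20, adjusted p = 3.18e-05). The serine synthesis genes PHGDH and PSPH were higher with VPA at -0.46 and -0.55. Of 64 respiratory chain genes, 3 were higher with ATRA and 6 with VPA (14.1% called, against 27.5% over all genes), although all 64 had a mean of at least 100. The count higher with VPA was 19 after a second quantile normalization 2 with the 3'/5' covariate, 3 without ATRA replicate 3 and 10 without VPA replicate 3.

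**Figure D4:**
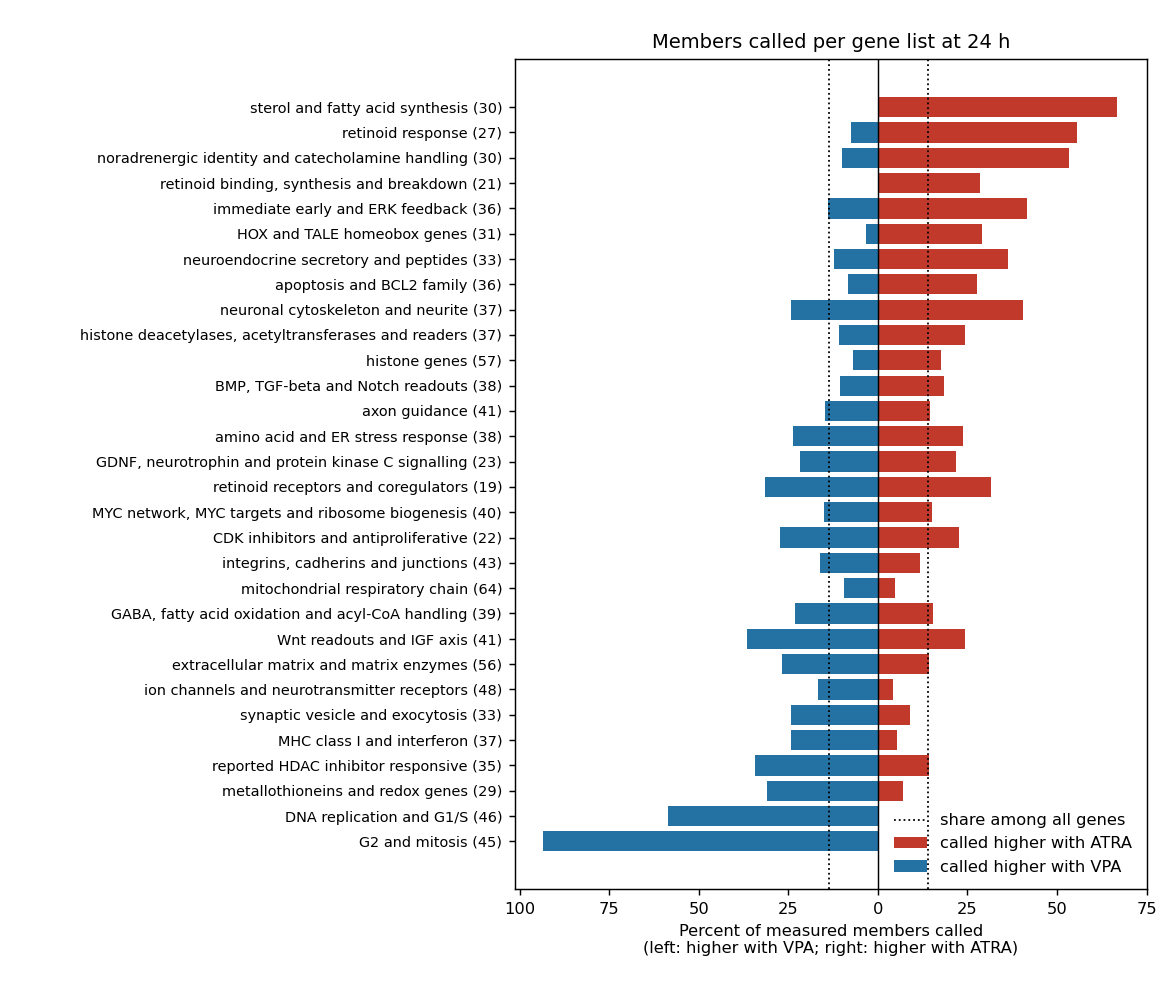
Percent of the measured members of each of 30 gene lists called higher with ATRA (red, to the right) or higher with VPA (blue, to the left), with the number measured in parentheses; the dotted lines mark the shares over all genes, 13.9% and 13.6%. G2 and mitosis and DNA replication reach far to the left with 0 called to the right, and sterol and fatty acid synthesis is the reverse.

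Set beside the other 24 h groups, the 2 sides of the comparison were not mirror images among genes called at least 2-fold. Of the 167 genes called at least 2-fold higher with ATRA, the DMSO mean was nearer the VPA mean for 148, or for 141 without DMSO replicate 1. The combination mean was nearer the ATRA mean for 133 of the 167. Of the 163 genes at least 2-fold higher with VPA, the DMSO mean was nearer the ATRA mean for 103 and nearer the VPA mean for 60, and without DMSO replicate 1 for 90 and 73. The combination was nearer ATRA for 84 and nearer VPA for 79. Genes such as KCTD12 and HDAC9, with DMSO near VPA, and EPB41L2, MORC4 and IFI30, with DMSO near ATRA, thus both occur on the VPA side. For all 1665 genes called higher with ATRA, the DMSO mean was nearer the ATRA mean for 416 and nearer the VPA mean for 1249. Without DMSO replicate 1 these counts were 729 and 936, so that they rest on that array. For all 1622 genes called higher with VPA, the DMSO mean was nearer the ATRA mean for 929 and nearer the VPA mean for 693. Without DMSO replicate 1 these counts were 805 and 817, so that over all calls the 2 sides were less unlike. These positions describe levels, and nearness was not tested.

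The same direct comparison at the other times called 2009 genes at 6 h (16.8%), 877 higher with ATRA (7.35%) and 1132 higher with VPA (9.48%), and 3947 at 72 h (33.1%), 1465 of the latter higher with ATRA (12.3%) and 2482 higher with VPA (20.8%). Of the 1665 genes higher with ATRA at 24 h, 434 were called the same way and 87 the other way at 6 h, and 544 and 219 at 72 h. Of the 1622 higher with VPA, 557 and 51 were called the same and the other way at 6 h, and 912 and 70 at 72 h. At all 3 times 168 genes were higher with ATRA, PRKCH, RARA and HOXD4 among them, and 361 were higher with VPA, SLITRK5 and MORC4 among them. The change of the difference was tested itself. Against 6 h it was called for 1439 genes (12.1%), 818 upward, meaning a higher ATRA minus VPA value at 24 h (6.85%), and 621 downward (5.2%). Against 72 h it was called for 2879 (24.1%), 1881 upward (15.8%) and 998 downward (8.36%). The balance of directions moved with the scaling: with arrays centred on their median it was 686 upward and 912 downward against 6 h and 1540 and 1308 against 72 h, and after a second quantile normalization 1066 and 1075 against 72 h. With the 3'/5' covariate the 72 h count was 708, 566 upward and 142 downward, beside ratios of 1.82 ± 0.17 with ATRA and 1.09 ± 0.16 with VPA at 72 h (log2, SD, n = 3).

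Several blocks had their own timing. For the G2 and mitosis list the 6 h comparison called 10 of 45 higher with ATRA and 0 with VPA, and the 24 h difference was lower than the 6 h difference for 37 members and higher for 0. At 72 h 39 were higher with VPA, and the 24 h and 72 h differences were called apart for 11 members, 5 upward and 6 downward. MKI67 differed by 0.19, -0.72 ± 0.09 and -0.55 at 6 h, 24 h and 72 h. For sterol and fatty acid synthesis the 24 h lead of ATRA was not seen in the counts at the other times. At 6 h 3 of 30 were higher with ATRA and 2 with VPA, and at 72 h 4 and 4. The 24 h difference was called above that at 6 h for 13 members and below for 0, and above that at 72 h for 18 and below for 1. DHCR7 differed by 0.34, 1.23 ± 0.16 and -0.17 at the 3 times and CYP51A1 by 0.43, 1.29 ± 0.26 and -0.97. Noradrenergic genes had a higher 24 h than 72 h difference for 15 of 30 members and a lower one for 2, and respiratory chain genes for 16 of 64 and 1. Over all genes this change was called upward for 15.8% and downward for 8.36%, a balance that moved with the scaling. The list counts of change are given without the 3'/5' covariate, with which only 708 genes in all were called changed against 72 h. The mean log2 ratio was 0.89 with ATRA and 1.60 with VPA at 24 h, and 1.82 and 1.09 at 72 h.

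Single genes differed in their timing. PRKCH differed by 4.05, 4.57 ± 0.12 and 4.47 at 6 h, 24 h and 72 h, a change called against 6 h (adjusted p = 0.0434) and not against 72 h (0.703), while CYP26A1 and CYP26B1 climbed in the ATRA group. The mean intensity of CYP26A1 was 31.5, 201 and 621 with ATRA and 21.8, 24.3 and 19.6 with VPA at the 3 times. That of CYP26B1 was 21.3, 252 and 601 with ATRA and 17.5, 17.9 and 17.3 with VPA. The difference of CYP26B1 was called higher at 24 h than at 6 h (adjusted p = 2.94e-11), but all VPA means, and the ATRA mean of CYP26B1 at 6 h, were under 25, so that the size of the step is not fixed. HTR2B had its largest difference at 24 h, with 2.32 at 6 h and 0.89 at 72 h. Its mean intensity with ATRA was 198, 1180 and 1181 at 6 h, 24 h and 72 h. With VPA it was 38.9, 121 and 637, so that the smaller difference at 72 h came with a higher VPA level. CDKN1A turned from -0.59 at 6 h, where VPA was ahead (adjusted p = 0.0355), to 2.01 ± 0.19 at 24 h (change 2.59 ± 0.27, adjusted p = 3.08e-07). CXADR had a larger VPA lead at 6 h, -2.75, than at 24 h, and -0.14 at 72 h. IGFBP5, KCTD12, EDNRB, an endothelin receptor, and HTR3A gained all or most of their VPA lead after 6 h, EDNRB moving from 0.20 to -1.82 ± 0.17. LGR5, a receptor for R-spondins, turned from 1.29 ± 0.14 at 24 h to -1.29 at 72 h (change 2.57 ± 0.20, adjusted p = 3.21e-09). STMN4, a neuronal stathmin, and CALCB, a calcitonin gene-related peptide, were late: they differed by 0.27 ± 0.16 and 0.70 ± 0.11 at 24 h and by 4.09 and 4.20 at 72 h. SERPINE2, an inhibitor of serine proteases, SYNGR3 and TSPAN13 turned from a VPA lead at 24 h (-0.89 ± 0.10, -1.32 ± 0.20 and -0.32 ± 0.11) to an ATRA lead at 72 h (1.49, 0.98 and 2.35).

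A few large time differences came with uneven arrays. FOLR1 read 529, 144 and 584 with ATRA and 169, 41.4 and 119.8 with VPA at 24 h, with replicate 2 lowest in both groups, and its change of 4.17 ± 0.72 against 72 h was not called with the 3'/5' covariate (adjusted p = 0.12). TAF9B and EML4 behaved alike, with replicate 2 lowest in both groups and changes of 2.84 ± 0.63 and 2.59 ± 0.51 that were not called with the covariate (adjusted p = 0.62 and 0.34). Replicate 2 had the highest 3'/5' ratio in both groups, and its part in these values was tested by the covariate alone.

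**Figure D5:**
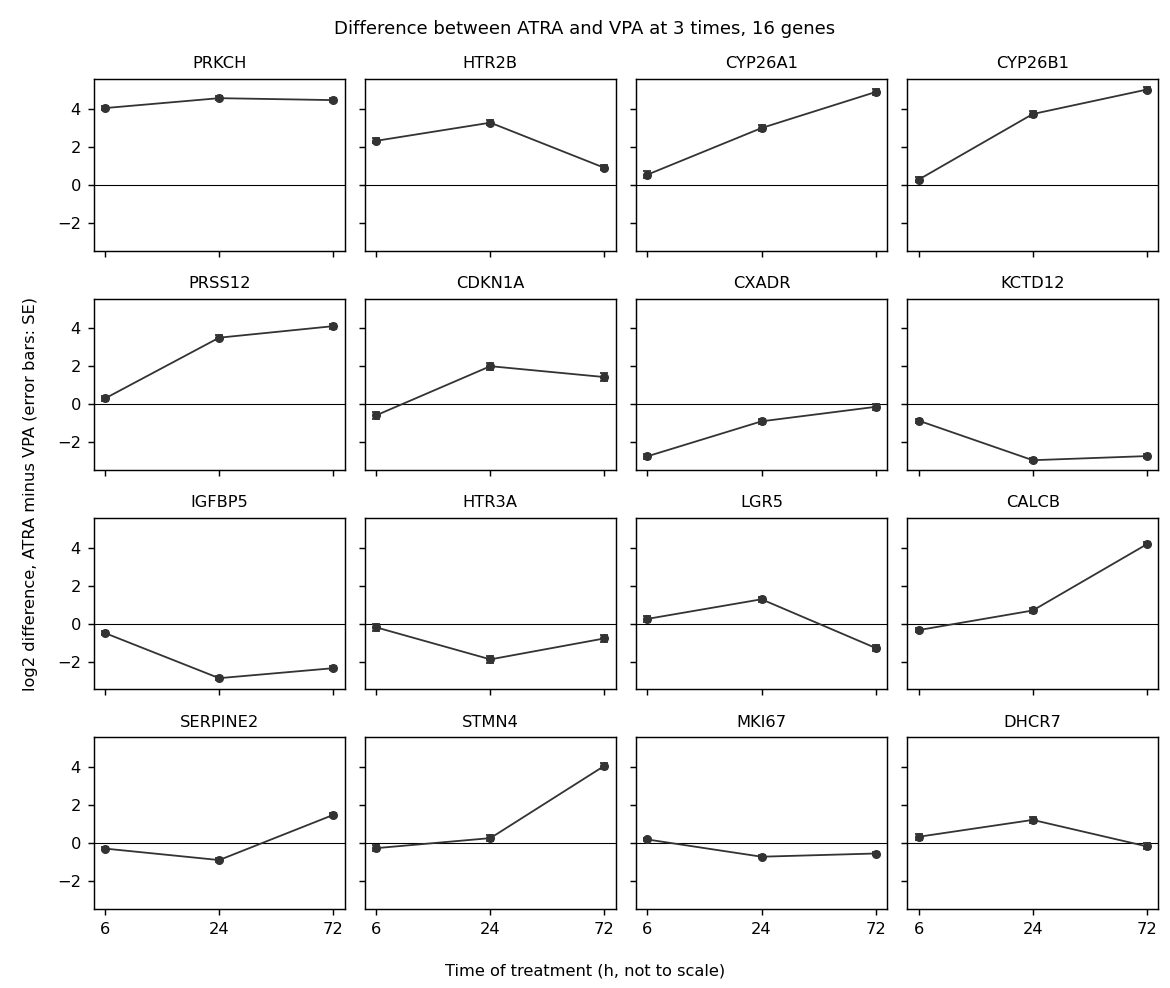
Difference between ATRA and VPA (log2, ATRA minus VPA, with the standard error of the fit, 3 arrays per group) at 6 h, 24 h and 72 h for 16 genes. PRKCH lies above 4 at all times, CYP26A1 and CYP26B1 climb, HTR2B and DHCR7 are highest at 24 h, CDKN1A and LGR5 cross 0, and STMN4 and CALCB have their largest difference at 72 h.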

How the data were processed

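The deposited table held intensities of 22930 probe sets on 35 arrays, which the authors had normalized with RMA, per the submitters' processing notes; the array annotation and genome build are not given in the sources used here. The values were on a linear scale from 9.48 to 26442 and carried no detection calls. Of the probe sets, 19415 named 1 gene, 125 several and 3292 none, and 98 were controls. For 4507 genes with several probe sets the brightest was taken, which gave 11940 genes, 11874 of them matched to RefSeq by gene ID.

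A linear model with 1 mean for each of 9 groups (ATRA, VPA and both, at 6 h, 24 h and 72 h, 27 arrays, 18 residual degrees of freedom, prior 5.88) was fitted to log2(intensity + 1) with limma 3.58.1 in R 4.3.3. P-values were adjusted over all genes by the Benjamini-Hochberg method at 0.05. The script was tested on simulated data. Python 3.11.15, pandas 2.3.3 and matplotlib 3.10.9 made the summaries. The number of arrays limits the precision.

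Named were the 12 largest called differences per direction with arrays that did not overlap and a mean of at least 100 in the higher group, up to 4 called members per list, the 5 largest time differences per direction, and a fixed set of retinoid, neuronal and division genes; other list members were named after their values were seen. The members, the 35 gene lists (1250 genes, 1106 measured) and these rules were chosen with earlier results of these data known. Alternatives covered the replicate number as a block, the arrays fitted, the pseudocount, a filter on low values, probe set means, scaling, the variance prior, array weights, the 3'/5' ratio and leaving out each array. Same-numbered arrays had correlations of deviations of 0.137, 0.349 and -0.03, beside -0.3 to 0.234 for arrays of different numbers. The highest value, 0.349, was that of the replicate 2 arrays. The numbers were not taken as pairs in the main fit, and the fit with them as a block is given below.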

Additional observations from a re-analysis of the deposited data

Results flagged for a closer look

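The difference between ATRA and VPA was itself tested for change with time, and it was called changed between 6 h and 24 h for 1439 genes and between 24 h and 72 h for 2879. These are tests of the interaction of agent and time, limma with Benjamini-Hochberg adjustment. The genes below had the 5 largest changes in each direction against each of the other times, among genes with a group mean of at least 100.

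Against 6 h, the ATRA minus VPA difference at 24 h was higher by 3.46 log2 units for CYP26B1, 3.21 for PRSS12, 2.59 for CDKN1A, 2.54 for DUSP6 and 2.46 for CYP26A1. For CYP26A1 and CYP26B1 the VPA means were under 25 at every time, so that the size of these changes is not fixed. It moved towards VPA, at -2.38 for IGFBP5, -2.09 for KCTD12, -2.05 for CRISPLD2, a secreted protein gene, -2.02 for EDNRB and -1.69 for HTR3A.

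Against 72 h, the difference at 24 h was higher by 4.17 for FOLR1, a folate receptor, 2.84 for TAF9B, 2.59 for EML4, 2.57 for LGR5 and 2.39 for HTR2B. It was lower at 24 h, with changes of -3.82 for STMN4, -3.50 for CALCB, -2.67 for TSPAN13, -2.39 for SERPINE2 and -2.30 for SYNGR3. The changes of FOLR1, TAF9B and EML4 were not called once the 3'/5' covariate was fitted.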

How the results depend on the processing

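Over all alternatives that gave a set of calls, 2331 to 3783 genes were called, the fewest with the 3'/5' covariate and the most with array weights, and 0 shared calls changed direction. With that covariate the count higher with VPA was 1039 and the count for the change against 72 h was 708; the cause was not tested. Without DMSO replicate 1 the number of genes higher with ATRA whose DMSO level was nearer ATRA was 729 in place of 416. Leaving out 1 array gave 2530 to 3266 calls, 1225 to 1654 higher with ATRA and 1251 to 1612 higher with VPA, 1173 to 1383 changes against 6 h, 2085 to 3120 against 72 h, and a 3'/5' ratio difference of -0.92 to -0.35. Without ATRA replicate 3 the calls were fewest, 2530. Arrays centred on their median gave 1894 and 1474. With the replicate number as a block, 3280 genes were called, 1660 higher with ATRA and 1620 higher with VPA, 3210 of them shared, and the time changes were 1439 and 2823; the block ended the call of HDAC2 among the named genes. Of all values under the alternatives, those above included, 4025 stayed the same, 77 gene values lost their call, 3 gained one and 0 reversed. For a gene, staying the same means keeping direction and side of the threshold. For a count it means staying within 1.5-fold of the main count, and 118 counts moved beyond that. For the 3'/5' ratio difference it means keeping its sign. Low signal limits the 5743 genes under 100 in both groups.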
